A study of Mus musculus with 6 samples.

Results

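Ppara, Acaa2, Cpt1a and Pex11a are 4 genes of fatty acid oxidation and of the organelles that carry it out. Their signal was read in mouse heart after a sham operation and after myocardial infarction (MI). The 4 genes were chosen with earlier results of these data known. Their probes were found by the RefSeq transcript given for each probe in the array files, a step that did not use the measured values. They are 4 of the 50 mRNA probes on the array, which also carries 14236 probes for circular RNA (circRNA). The probes are A_51_P348334 for Ppara (NM_011144), A_51_P125260 for Acaa2 (NM_177470), A_51_P427674 for Cpt1a (NM_013495) and A_51_P456957 for Pex11a (NM_011068), and each is printed as 10 spots.

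The hearts came from wild-type male mice aged 10 weeks. There were 3 sham and 3 MI hearts with 1 array each, and the MI was caused by ligation of the left anterior descending coronary artery. The labels place the tissue 1 day after ligation in the treatment protocol, which is attached to all 6 samples, and at 4 weeks in the source name of the MI samples, so the time is not settled. No strain is given, and the region of the heart that was taken is not stated. RNA of both groups was digested with RNase R, which degrades most linear RNA from its free end and leaves most circRNA, before copying with random primers and Cy3 labelling. The values below are therefore probe signals in RNA depleted of linear transcripts, not mRNA levels of the tissue, and a probe cannot tell linear RNA from circular RNA of the same exons.

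The heart draws much of its ATP from long-chain fatty acids. PPAR alpha, the nuclear receptor encoded by Ppara, binds DNA with the retinoid X receptor and drives transcription of genes for fatty acid uptake and oxidation in heart and liver. Cpt1a encodes the liver-type isoform of carnitine palmitoyltransferase I, which loads long-chain fatty acids onto carnitine for entry into mitochondria. Acaa2 encodes a mitochondrial thiolase, an enzyme that cuts acetyl-CoA from the chain at the end of a round of oxidation. Pex11a encodes a membrane protein that takes part in the division of peroxisomes, where very long chains are shortened. Acaa2, Cpt1a and Pex11a are known targets of PPAR alpha in liver.

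Levels are given as log2 of the processed intensity minus the array's own 75th percentile, so that 0 is the 75th percentile and each unit is a doubling. On this scale the 75th percentile corresponded to an intensity of 68.0 to 153 across arrays, and 9765 to 11996 circRNA and mRNA probes per array were well above background. Of the 11554 probes tested, 50.5% passed the threshold of an adjusted p of 0.05 (limma, Benjamini-Hochberg over all tested probes), 25.7% as higher and 24.8% as lower in MI. Sham 2 stood apart: it was the only array with its scan identifier, and over tested probes it correlated at 0.908 and 0.905 with the other sham arrays, against 0.976 between Sham 1 and Sham 3. Its correlations with MI 1, MI 2 and MI 3 were 0.875, 0.886 and 0.906. Without Sham 2, 68.6% of 11551 probes passed, 4222 higher and 3701 lower.

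The 4 genes did not move as one. The Ppara signal was 9.10-fold lower in MI, the Acaa2 signal was 1.80-fold lower, the Pex11a signal was 2.41-fold higher, and the Cpt1a signal did not pass the threshold. So 3 of the 4 probes passed, 2 lower and 1 higher, in a comparison where 50.5% of all tested probes and 48.8% of the 41 tested mRNA probes did; a count of 3 in 4 is too small to set apart from that background. The median log2 fold change of the 4 was -0.17, beside 0.10 over all tested probes and 0.60 over the tested mRNA probes. On every one of the 6 arrays all 4 probes were well above background, and none of their spots was saturated.

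**Figure D1:**
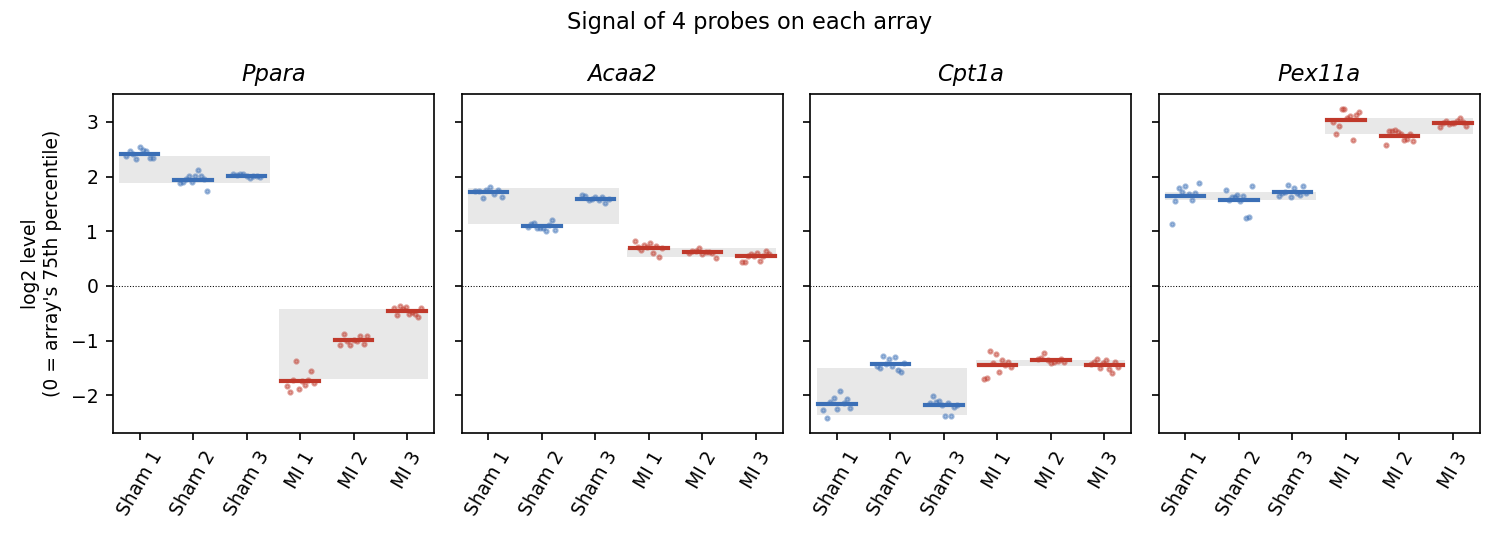
The vertical axis is the log2 level of each probe, with 0 at the array's 75th percentile, and the horizontal axis lists the 6 arrays (blue, sham; red, MI). Points are single spots that were not flagged, bars are their mean on each array, and grey boxes are the group mean ± SD over 3 arrays. The groups lie apart for Ppara, Acaa2 and Pex11a, while for Cpt1a the Sham 2 array lies at the level of the MI arrays.

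The Ppara probe was bright in sham hearts, with intensities of 362, 476 and 418 on Sham 1, Sham 2 and Sham 3. In MI the intensities were 32.7, 76.6 and 94.1 on MI 1, MI 2 and MI 3. Every sham array was thus brighter than every MI array, also before any scaling. As log2 levels the sham values were 2.41, 1.94 and 2.02 and the MI values -1.73, -0.996 and -0.46. The groups did not overlap, and the gap between the lowest sham and the highest MI array was 2.40. Groups that did not overlap were found for 61.1% of the probes that were tested and measured on every array.

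Ppara averaged 2.12 ± 0.25 over the sham hearts and -1.06 ± 0.64 over the MI hearts (SD, n = 3). The log2 fold change was -3.19 with an SE of 0.35 and an adjusted p of 0.00277, which is a fall of 9.10-fold with a 95% interval of 5.14 to 16.1. Only 10 of the 11554 tested probes had a lower log2 fold change than Ppara, and none of the other 40 tested mRNA probes did. The fall passed the threshold under all 19 distinct alternative settings, at log2 fold changes from -3.77 to -2.23. The smallest fall, -2.23, came with the normexp background correction. It lay outside the 95% interval above, which on the log2 scale ran from -4.01 to -2.36. With no background subtraction the log2 fold change was -2.66.

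The MI arrays differed among themselves more at Ppara than at the other 3 probes. The highest MI array was 2.42 times the lowest at Ppara, against 1.12 times at Acaa2, 1.07 times at Cpt1a and 1.22 times at Pex11a. MI 1, the lowest at Ppara, had 207 flagged spots, against 65 to 102 on the other arrays. It also had the fewest circRNA and mRNA probes well above background (9765). The part of these marks in the spread was not tested. Raw Ppara spots on MI 1 had a median intensity of 60.5, which is 2.52 times the negative control spots of that array, and on Sham 3 the ratio was 21.1. The depth of the fall on MI 1 is therefore read nearer to the background than the other values. Without MI 1 the log2 fold change was -2.85 (adjusted p = 0.0132). In RNA from heart tissue, fewer cells of a type and less RNA per cell cannot be told apart.

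Spots of one array share their RNA and are no replicates of a condition, but they show how precisely each array was read. Over the 57 Ppara spots that were not flagged, the dimmest of the 28 sham spots was at 1.73 and the brightest of the 29 MI spots at -0.37. The SD among the spots of one array was 0.03 to 0.17 for Ppara, well under the SD of 0.64 among the MI arrays. Across all 4 probes the spot SD lay between 0.03 and 0.22, and 10 spots were flagged and left out.

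At Acaa2 the fall was smaller and less firm. The levels were 1.71, 1.09 and 1.60 on Sham 1, Sham 2 and Sham 3, and 0.70, 0.61 and 0.54 on MI 1, MI 2 and MI 3. The groups did not overlap, with Sham 2 the lowest of the sham arrays and the MI arrays close together. The sham mean was 1.47 ± 0.33 and the MI mean 0.62 ± 0.08 (SD, n = 3). Their difference of -0.85 on the log2 scale passed the threshold (SE 0.25, adjusted p = 0.0246). As a ratio this is a fall of 1.80-fold with a 95% interval of 1.20 to 2.70.

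The unscaled Acaa2 intensities overlapped between groups. They were 223, 263 and 312 in sham and 176, 234 and 188 in MI, in array order, so that MI 2 was brighter than Sham 1. With no scaling the log2 fold change was -0.42 (adjusted p = 0.405) and with median centring -0.54 (adjusted p = 0.125), and neither passed. The call was also lost whenever 1 array other than Sham 2 was left out, with values of -0.73 and -0.78 without Sham 1 and Sham 3 and of -0.89, -0.85 and -0.81 without MI 1, MI 2 and MI 3. Without Sham 2 it held, at -1.04 (adjusted p = 0.00335).

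The Cpt1a probe was dim on all arrays, with intensities of 15.2, 45.9 and 22.7 on Sham 1, Sham 2 and Sham 3 and of 39.8, 60.1 and 47.7 on MI 1, MI 2 and MI 3. Its log2 levels were -2.16, -1.43 and -2.18 on Sham 1, Sham 2 and Sham 3, and -1.45, -1.35 and -1.44 on MI 1, MI 2 and MI 3. Sham 2 lay inside the MI range, while Sham 1 and Sham 3 lay below all MI arrays. The sham mean was -1.93 ± 0.43 and the MI mean -1.41 ± 0.05 (SD, n = 3). The log2 fold change of 0.52 had an SE of 0.27 and an adjusted p of 0.15. The 95% interval ran from -0.12 to 1.15, so neither no difference nor a doubling lies outside it.

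Whether Cpt1a passed turned on Sham 2 and on the scaling. Among the 5 arrays that share a scan, which leaves Sham 2 out, the log2 fold change was 0.76 (SE 0.18, adjusted p = 0.00961). It passed with quantile normalization at 0.80, with median centring at 0.82 and with cyclic loess at 0.78. It was at -0.070 (adjusted p = 0.877) when each array was centred on the median of its mRNA probes. Raw Cpt1a spots were 1.88 to 3.70 times the negative control spots of their array, and with the normexp correction the log2 fold change was 0.069. The intensity of the negative control spots was 20 and 20.5 on Sham 1 and Sham 3, 25.5 on Sham 2 and 22.5 to 24 on the MI arrays. It was thus lowest on the same 2 arrays as the Cpt1a level. Its part in the Cpt1a values was not tested.

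Pex11a moved in the direction opposite to Ppara. Intensities were 213, 369 and 341 on Sham 1, Sham 2 and Sham 3 and 889, 1025 and 1023 on MI 1, MI 2 and MI 3. Each MI array was brighter than each sham array. The log2 levels were 1.65, 1.58 and 1.73 in sham and 3.03, 2.75 and 2.98 in MI, in the same order. Both groups were tight and did not overlap, with a gap of 1.02. The sham mean was 1.65 ± 0.07 and the MI mean 2.92 ± 0.15 (SD, n = 3). Pex11a thus rose, with a log2 fold change of 1.27, an SE of 0.22 and an adjusted p of 0.00367, which is 2.41-fold with a 95% interval of 1.70 to 3.43.

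The size of the Pex11a rise depended on the scaling. Among the 1155 tested probes in the same decile of mean level as Pex11a, the median log2 fold change was 0.86 (quartiles -0.16 and 1.29), and 296 of them had a higher value than Pex11a. The rise was 0.77 (adjusted p = 0.0213) with quantile normalization. It no longer passed with cyclic loess, which removes shifts that vary with brightness, at 0.55 (adjusted p = 0.0589), or when centred on the median mRNA probe, at 0.69 (adjusted p = 0.158). With median centring it was 1.58 and with no scaling 1.70, and it stayed above 0 under all 19 distinct alternatives.

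The same comparison set Ppara, but not Acaa2, outside the bulk of probes of like brightness. Acaa2 at -0.85 lay below the lower quartile of its decile (-0.16) and above the 10th percentile (-1.39). Acaa2 shared its decile with Pex11a, and 177 of the 1155 probes there had a lower log2 fold change. In the decile of Ppara the median was 0.48 (quartiles -0.64 and 1.05), and 1 of 1156 probes lay lower than Ppara. In that of Cpt1a the median was -0.19 (quartiles -1.10 and 0.64), and 349 of 1156 probes lay higher. With cyclic loess the log2 fold change of Ppara was -3.51 (adjusted p = 0.00231) and that of Acaa2 -1.32 (adjusted p = 0.00686).

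**Figure D2:**
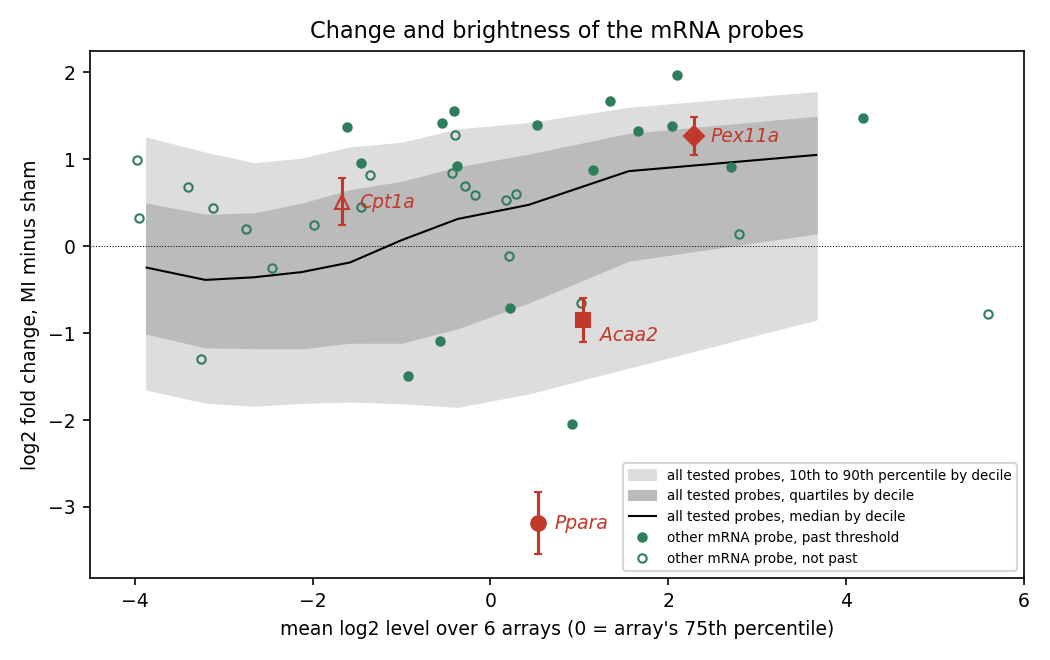
The horizontal axis is a probe's mean log2 level over the 6 arrays and the vertical axis its log2 fold change, MI minus sham. Grey bands and the black line give the spread and median of all tested probes by decile of level, circles are mRNA probes, filled where they passed the threshold, and the 4 named genes carry bars of 1 SE. Ppara at -3.19 lies below the outer band of the plot, and Pex11a at 1.27 lies between the quartiles of its neighbours.

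The mRNA probes as a group had a higher median on every MI array than on any sham array, and the 4 values can be read against that shift. The median level of the 50 mRNA probes was -1.42, -0.57 and -1.15 on Sham 1, Sham 2 and Sham 3 and -0.52, -0.49 and -0.37 on MI 1, MI 2 and MI 3. Of the 41 tested mRNA probes, 14 rose and 6 fell, which is 34.1% and 14.6% of them. Relative to the median mRNA probe, Ppara was at -3.77 (SE 0.44, adjusted p = 0.00359) and Acaa2 at -1.43 (SE 0.42, adjusted p = 0.0274), and neither Cpt1a nor Pex11a passed.

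**Figure D3:**
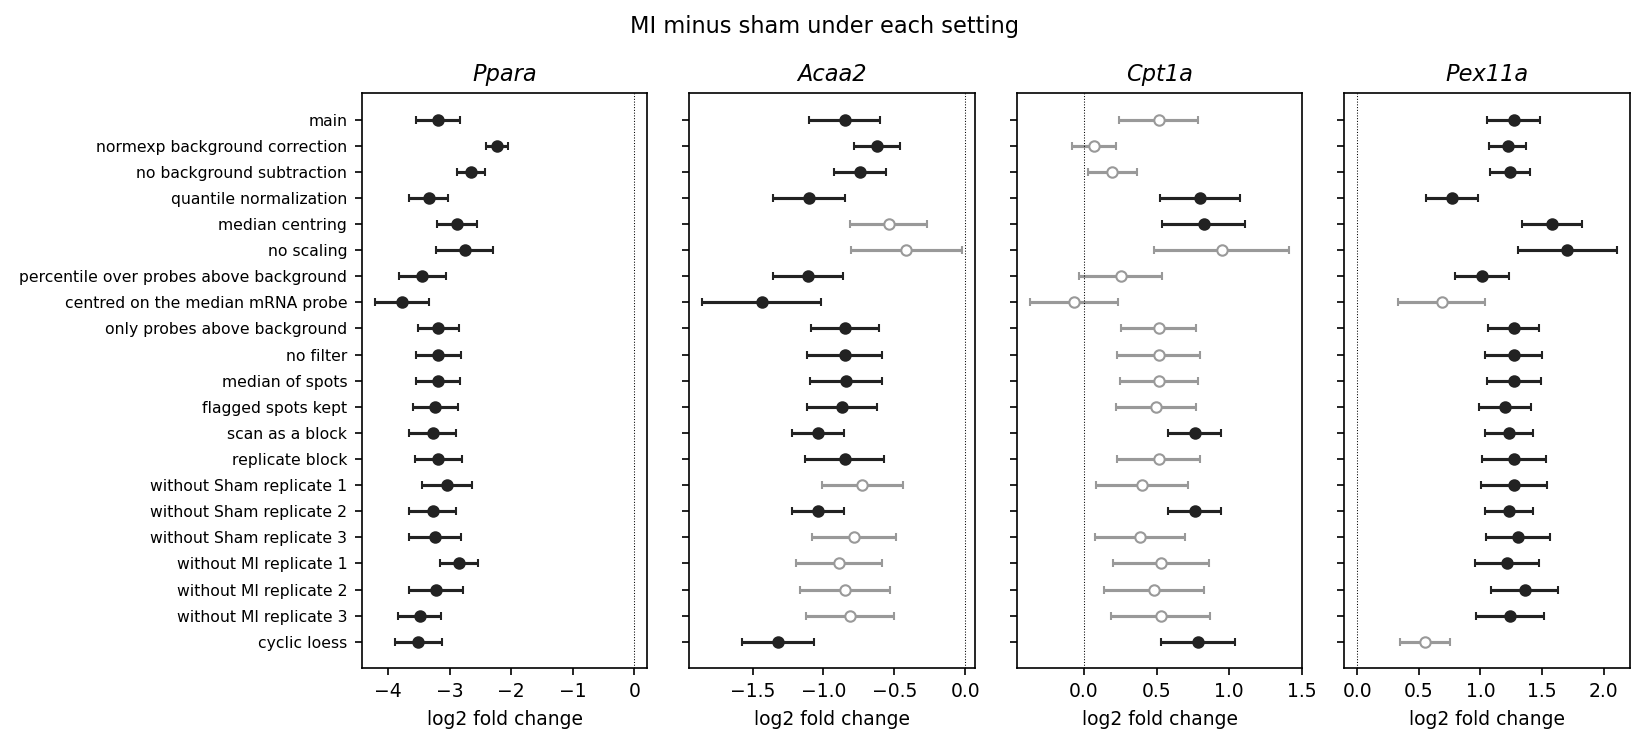
Each panel is 1 gene with its own horizontal axis, the log2 fold change of MI minus sham, and each line is 1 processing setting, with the setting used in the text at the top. Points are fitted values with bars of 1 SE, black and filled where the adjusted p was under 0.05 and grey and open where it was not. Ppara passed under every setting shown, Acaa2 and Pex11a kept their direction and lost the call under 7 and 2 settings, and Cpt1a passed under 4 distinct settings and changed sign under 1. The scan as a block and leaving out Sham replicate 2 are the same fit.

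Differences between 2 probes on the same array do not depend on a shift shared by the whole array, and all 6 pairs were compared this way. The within-array difference of Ppara and Pex11a averaged 0.47 ± 0.25 over sham hearts and -3.98 ± 0.69 over MI hearts (SD, n = 3). The shift between them was -4.46. The shift of Ppara was -3.70 against Cpt1a and -2.34 against Acaa2, and that of Acaa2 was -2.12 against Pex11a and -1.36 against Cpt1a. For Cpt1a against Pex11a it was -0.76, with -0.47 without Sham 2 and 0.032 under quantile normalization. The groups did not overlap in any of the 6 pairs, but the pairs reuse the same 4 probes. Among single probes tested and measured on every array, the groups did not overlap for 61.1%. The share among pairs of other probes was not computed. Each of the 6 pairs gave p = 0.1 in an exact permutation test (two-sided, adjusted p = 0.1 over the 6 pairs). That is the smallest p possible with 3 arrays in each group, so none can pass a threshold of 0.05.

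The rest of the pathway was hardly covered. Of 88 genes on a list of fatty acid oxidation, peroxisome and PPAR genes, the only ones on a named mRNA probe were these 4, so Cpt1b, the muscle-type isoform of carnitine palmitoyltransferase I, and the other PPAR and retinoid X receptor genes were not measured by one. Of 19 lipid transport genes, Apoe, which encodes an apolipoprotein of lipoprotein particles and macrophages, was the only one present. It went from 2.25 ± 0.30 to 3.16 ± 0.22 (SD, n = 3), a rise whose log2 fold change was 0.91, with an SE of 0.26 and an adjusted p of 0.0212. That is below the median of 1.05 (quartiles 0.15 and 1.48) among the 1156 tested probes in the same decile of mean level.

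Markers of the cells in the tissue were nearly absent too. Of 55 markers of 10 cell types, 5 were on a named mRNA probe. The only cardiomyocyte marker was Hspb7, which encodes a chaperone of striated muscle. Its sham mean was 5.99 ± 0.46 and its MI mean 5.21 ± 0.09 (SD, n = 3), a difference that did not pass (adjusted p = 0.0519). With Sham 2 left out, Hspb7 passed at -1.05 on the log2 scale (adjusted p = 0.00317). Il2 of T cells, Mzb1 of B cells and Apoe, also a macrophage marker, rose by 1.67, 1.56 and 0.91 on the log2 scale, and Mbp of Schwann cells was at -1.30 (adjusted p = 0.147). The part of these shifts in the 4 results was not tested.

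Likeness to other probes was measured by Pearson's r over the 6 arrays and is given as a description, since 2 groups that lie apart produce high values for any probe that differs between them. The named mRNA probes most like Ppara were H2-Q7, a class Ib histocompatibility gene (r = 0.951), and Lhfp, which encodes a membrane protein (r = 0.902). H2-Q7 was at 1.72, 1.70 and 2.41 in sham and -0.36, 0.11 and -0.08 in MI, in array order. Among MI hearts it was lowest on MI 1, as Ppara was, and highest on MI 2, where Ppara was highest on MI 3. Nearest to Acaa2 were Hspb7 (r = 0.964) and Lhfp (r = 0.938). Hspb7 shared the low Sham 2 level of Acaa2, at 5.46 against 6.25 and 6.28 on Sham 1 and Sham 3.

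Nearest to Cpt1a were Hyal3, a hyaluronidase family gene (r = 0.995), and Carhsp1, which encodes an RNA-binding protein (r = 0.986). Both had the same outlying Sham 2: Hyal3 was at -1.59, 0.22 and -1.75 in sham and at 0.32, 0.30 and 0.10 in MI, in array order. Close to Pex11a was Gamt, which encodes an enzyme of creatine synthesis (r = 0.975) and rose by 1.38 on the log2 scale.

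Many circRNA probes had such a pattern. Of the 11326 circRNA probes that were tested and measured on every array, 20.2% had r above 0.9 with Ppara, 13.7% with Acaa2, 10.8% with Cpt1a and 16.6% with Pex11a. The closest were ASCRP4007261 for Ppara, ASCRP4002482 for Acaa2, ASCRP4004350 for Cpt1a and ASCRP4011271 for Pex11a, each with r of 0.999. The files give these probes no gene name.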

How the data were processed

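Per the file headers, the authors ran Agilent Feature Extraction 11.0.1.1, whose files give a processed intensity, background-subtracted and detrended within the array and not scaled between arrays, and the raw median intensity of each spot. The value table the authors deposited holds log2 values of 14225 circRNA probes and 0 mRNA probes. It was used only for counts, and its scale is inferred. limma is named in the submitters' processing notes with no version or role, and how the table was normalized is not given in the sources used here.

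Spots flagged as outliers were dropped, the rest averaged on the log2 scale, and each array's 75th percentile over probes not marked as controls was subtracted. Probes well above background on at least 3 arrays (over 50% of unflagged spots) were tested with limma 3.58.1 (R 4.3.3), MI against sham, as a two-sided test. P-values were adjusted by the Benjamini-Hochberg method across the whole table of tested probes. With 3 arrays per group, their number limits the precision. That each array is a separate mouse rests on the design text.

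Names came from RefSeq transcripts of GRCm38.p6, which named 44 of 50 mRNA probes. The design was built on mm9, so no coordinate is given, and probe sequences were not used here. The genes and lists were chosen with earlier results of these data known. The text names these 4 genes, array genes on those lists, and per gene the 2 mRNA probes and 1 circRNA probe with the highest Pearson's r, of which 1 is not reported here. Raw-signal alternatives used the median spot signal in place of the planned mean signal. Figures were drawn with matplotlib 3.10.9.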

Additional observations from a re-analysis of the deposited data

How the results depend on the processing

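The scan as a block drops Sham 2 and is the same fit as leaving it out, so there are 19 distinct alternatives. The fall of Ppara kept its direction and its call under all 19 (-3.77 to -2.23). Acaa2 kept its direction under all 19 (-1.43 to -0.42) and lost the call under 7: with median centring (-0.54), with no scaling (-0.42) and without any 1 array other than Sham 2 (over the 6 leave-outs, -1.04 to -0.73). Pex11a lost the call under centring on the median mRNA probe (0.69) and under cyclic loess (0.55), which was chosen after seeing the data. Cpt1a gained a call with quantile normalization (0.80), median centring (0.82), cyclic loess (0.78) and the scan as a block, without Sham 2 (0.76, with 0.39 to 0.76 over the leave-outs), and changed sign under centring on the median mRNA probe (-0.070). The shift of Cpt1a against Pex11a changed sign under quantile normalization (0.032). The cause of these changes was not tested.

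Over all tested probes 2974 were higher and 2864 lower in MI. With no scaling 1274 were lower, and centring on the median mRNA probe gave 497 higher, so that 12.4% of the calls were higher in place of 50.9%. Under the latter the median of all probes moved from 0.10 to -0.49. The share higher was 64.1% with median centring, 71.4% with no scaling and 37.4% with the percentile over probes above background on all arrays. The deposited table has no mRNA probe, so that alternative gave counts only. Same-numbered arrays did not deviate together (correlations of -0.09, 0.06 and 0.14), and Sham 1 was closest to MI 3 (0.22). With the replicate number as a block, Ppara was at -3.19 (adjusted p = 0.00974), Acaa2 at -0.85 (adjusted p = 0.049), Cpt1a at 0.52 (adjusted p = 0.179) and Pex11a at 1.27 (adjusted p = 0.0136), and 2601 probes were higher and 2665 lower. The replicate block changed no call of the 4 genes. Raw spots lay within 3.70 times the negative controls for Cpt1a on all arrays and at 2.52 times for Ppara on MI 1. With the normexp correction Cpt1a was at 0.069 and Ppara at -2.23.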
